A study of Mus musculus with 4 samples.

Results

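Siglecs are lectins of the immunoglobulin family that bind sialic acid on cell surfaces, and sialyltransferases are the Golgi enzymes that attach sialic acid to glycoproteins and glycolipids. The 10 genes described here are 4 siglecs (Cd33, Siglece, Siglec1 and Siglech) and 6 sialyltransferases (St6gal1, St3gal1, St3gal2, St3gal4, St3gal5 and St3gal6). They are measured by 21 probe sets out of 45101 on the array and are 10 of 18194 genes. The set was picked from earlier results on these same arrays because Cd33 and St6gal1 were lower with IL6, so the IL6 values of these genes are a description and carry no test. The cells were RAW264.7, a mouse macrophage line transformed by Abelson leukemia virus, kept for 4 days without IL6 in normoxia (NC) or in hypoxia at 1% oxygen (HC), or with IL6 at 25 ng/ml under either oxygen level (NC+IL6 and HC+IL6). How much oxygen the normoxic cells had is not stated in the labels or methods. Each of the 4 conditions was measured on 1 array, so no difference has a replicate check, and precision is limited by the count of arrays.

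Many siglecs of myeloid cells restrain activation. Their cytoplasmic tails recruit the phosphatases encoded by Ptpn6 and Ptpn11, whereas others, such as Siglech, signal through the adaptor encoded by Tyrobp. Which siglec can bind depends on how sialic acid is linked to the sugar beneath it, and that linkage is set by the sialyltransferase. St6gal1 builds the linkage on N-glycans that the B cell siglec Cd22 recognizes, the St3gal enzymes build another linkage on O-glycans, N-glycans and lipids, and St3gal5 makes the ganglioside GM3.

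Values are log2 signals deposited by the authors, in which a step of 1.0 is a 2-fold difference. To tell signal from background, each array was given a floor, taken as the 95th percentile over 65 genes restricted to other tissues (116 probe sets). In log2 signal it was 7.16 for NC, 7.35 for NC+IL6, 7.18 for HC and 7.28 for HC+IL6. Of those 65 genes, Afp, Cela1 and Mbp were above the floor on all 4 arrays, and without these 3 genes the floors were 6.20, 6.13, 6.52 and 6.08, a setting chosen after the data were seen. Any call of higher or lower required 2-fold or more between the arrays and a brighter signal past its floor. A dimmer signal under its floor was first raised to it, and the fold is then a lower bound ("at least"). Where neither array passed its floor, no fold is given. The brightest of several probe sets stands for its gene, and the signal of 1 probe set is not compared with that of another. All 12 macrophage markers, among them Adgre1, Csf1r and Cd68, were above the floor on all 4 arrays, with a summed signal between 162909 and 171347. None of the markers measured for B cells (5), T cells (6), mast cells (5) and fibroblasts (5) was above it, nor were more than 1 of 6 for neutrophils and 1 of 5 for epithelium. RNA integrity, read as beta-actin 3' over 5' signal, gave 1.54 for NC, 1.41 for NC+IL6, 1.73 for HC and 1.62 for HC+IL6. For Gapdh the same ratio was 0.93, 0.93, 0.87 and 0.88 in that order, so the 2 controls differed in direction with hypoxia. The part of RNA integrity in the values given here was not tested.

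Because IL6 signals through the transcription factor STAT3 and hypoxia through HIF, the bases before the transcription starts were read for the letters TTCNNNGAA, a STAT motif, and ACGTG, a HIF motif, on both strands. RefSeq promoters of GRCm38.p6 were at hand for 7 of the 10 genes, with 10 starts in all, and the 250 bases before each start were used. Over all 32851 promoters, 7.02% held the STAT motif and 16.6% the HIF motif. Cd33 lies at chr7:43527399-43537424 and St6gal1 at chr16:23224729-23360350. The windows of Cd33, of 1 of the 3 starts of St6gal1, and of Siglech are shown because Cd33 and St6gal1 were called with IL6 at both oxygen levels and Siglech had one of the profiles nearest to that of Cd33. Capitals mark matches, and each window is written 5′ to 3′ on the strand of the gene. They are chr7:43533172-43533421 on the minus strand, chr16:23225771-23226020 on the plus strand and chr7:55767934-55768183 on the plus strand.
Cd33: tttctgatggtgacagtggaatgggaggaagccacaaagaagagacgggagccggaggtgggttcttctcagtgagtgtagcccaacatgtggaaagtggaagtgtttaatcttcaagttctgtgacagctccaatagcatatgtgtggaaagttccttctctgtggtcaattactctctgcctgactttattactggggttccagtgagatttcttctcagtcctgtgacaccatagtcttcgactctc
St6gal1: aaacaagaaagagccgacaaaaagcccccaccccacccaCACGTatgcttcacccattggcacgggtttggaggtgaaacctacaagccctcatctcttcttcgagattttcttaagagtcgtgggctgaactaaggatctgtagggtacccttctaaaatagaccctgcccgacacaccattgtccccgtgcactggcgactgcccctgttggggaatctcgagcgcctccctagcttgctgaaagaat
Siglech: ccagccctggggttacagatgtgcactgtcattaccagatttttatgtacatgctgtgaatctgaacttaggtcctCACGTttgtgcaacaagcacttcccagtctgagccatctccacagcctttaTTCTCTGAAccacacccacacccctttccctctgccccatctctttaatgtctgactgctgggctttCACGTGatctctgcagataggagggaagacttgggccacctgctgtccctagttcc
Neither motif was found in the window of Cd33. Its 1 listed start lies inside the gene bounds given above and not at their 5′ end, and no other start of Cd33 was read. The window of St6gal1 held 1 HIF match that begins 211 bases before the start, and the other 2 starts of that gene held neither motif. Siglech held 1 STAT match, 123 bases before the start, and 3 HIF matches, of which 2 overlap. No other window of these genes held a match. Matches are letters in a window and say nothing of binding.

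Cd33, a siglec of myeloid cells, was lower with IL6 at both oxygen levels. Its log2 signal was 9.75 in NC and 6.97 in NC+IL6, then 10.03 in HC and 7.90 in HC+IL6. Both arrays without IL6 were brighter than both arrays with it, and the NC+IL6 signal was under the floor. The fold was at least 5.28 between NC and NC+IL6 and 4.38 between HC and HC+IL6. For hypoxia the log2 ratio of Cd33 was 0.28 between HC and NC and at least 0.55 between HC+IL6 and NC+IL6. The latter bound sets no upper limit, because the NC+IL6 signal was under the floor. Cd33 has 1 probe set, so no second probe set could be set beside it.

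St6gal1 was also lower with IL6, and unlike Cd33 it was above the floor on all 4 arrays. The log2 signal was 11.50 in NC and 9.17 in NC+IL6, then 12.32 in HC and 10.78 in HC+IL6. With IL6 it was 5.06-fold lower in normoxia and 2.91-fold lower in hypoxia. Its signal was higher in hypoxia at both IL6 settings, 1.76-fold in HC over NC, under the 2-fold limit, and 3.06-fold in HC+IL6 over NC+IL6. The NC+IL6 array enters both the latter ratio and an IL6 ratio for which the gene was chosen. A second, dimmer probe set of St6gal1 was under the floor throughout, with log2 signals of 5.10, 4.34, 6.17 and 5.93 in the same order. It therefore gives no fold. When both probe sets were averaged, the IL6 log2 ratio was -0.95 in normoxia, a lower bound in size because the averaged NC+IL6 signal was under the floor, and -0.89 in hypoxia, so that neither was called. The IL6 log2 ratio of St6gal1 was 0.80 higher in hypoxia than in normoxia, but 0.06 higher with averaged probe sets or with the floor at the 99th percentile of the background genes. In both of these settings the normoxia ratio was a lower bound in size (-0.95 and -1.61), so 0.06 is not a measured difference. For Cd33 this difference was 0.27 with the floor, 0.65 without it and -0.76 with the floor at the 99th percentile. The 0.27 also rests on a lower bound in normoxia. For the -0.76, the normoxia ratio had been set to 0 because the NC+IL6 floor (9.90) exceeded the NC signal (9.75), so no reversal is read from it. The size of the difference thus depended on the floor and, for St6gal1, on the probe set. Between probe sets of the same gene the pooled SD of a log2 ratio was 0.25 for IL6 in normoxia and 0.29 for IL6 in hypoxia, which measures disagreement between probe sets and not between cultures. As in any bulk sample, fewer cells expressing a gene and less RNA in each cell cannot be told apart.

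**Figure D1:**
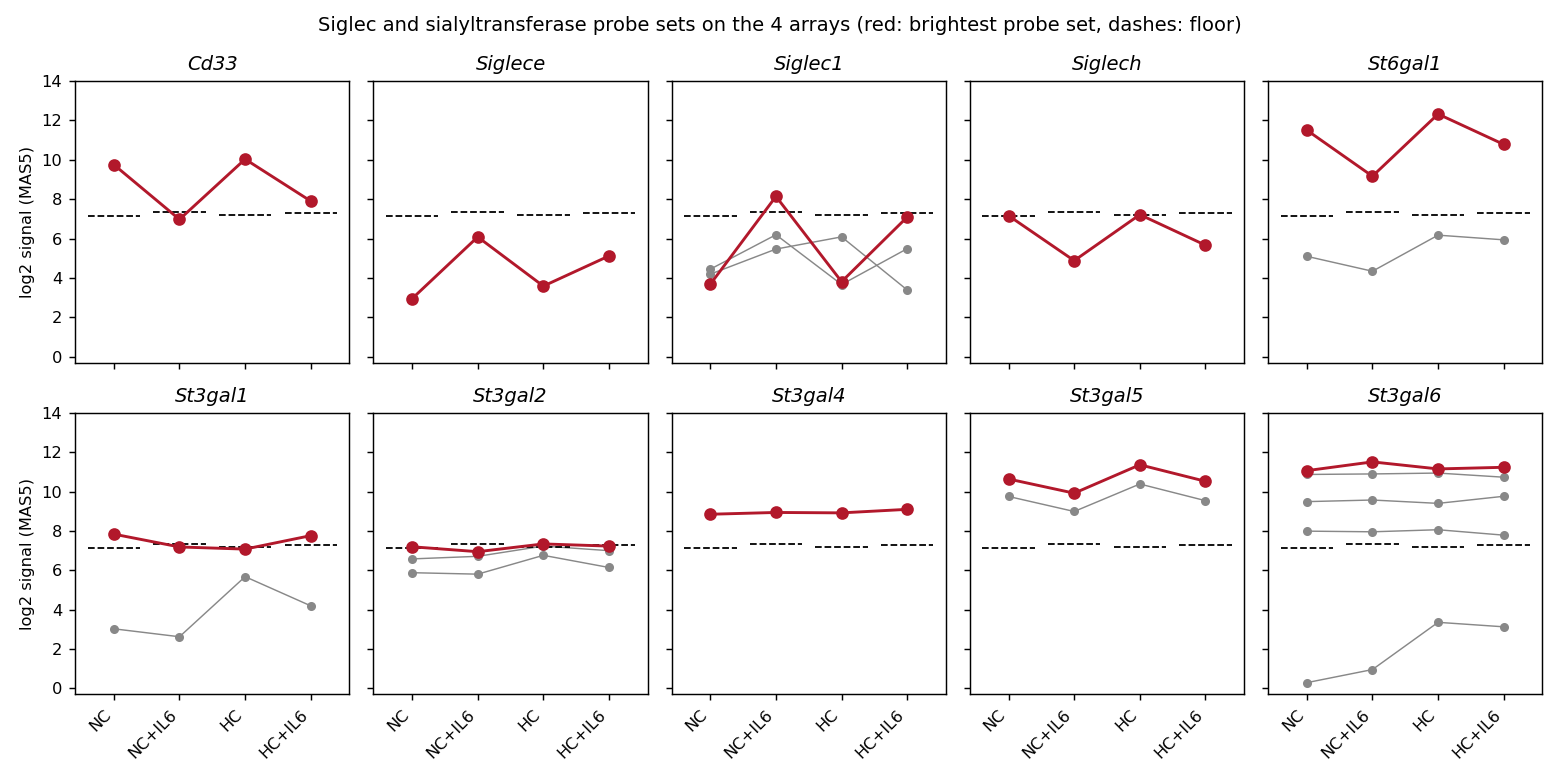
Log2 signal (MAS5) of all 21 probe sets of the 10 genes in NC, NC+IL6, HC and HC+IL6, 1 array each, with the brightest probe set of a gene in red, the others in grey, and the floor of each array as a dashed line. Cd33 and St6gal1 are lower on both IL6 arrays, St3gal5 follows them with a smaller step, and Siglece stays under the floor.

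The other siglecs were at or under the floor in most conditions. Siglec1, the adhesion receptor sialoadhesin (CD169) and a gene that interferon induces, had a log2 signal of 3.68 in NC and 8.14 in NC+IL6, then 3.81 in HC and 7.09 in HC+IL6. It was above the floor in NC+IL6 alone, at least 1.98-fold higher than in NC. That bound is under 2-fold, so no call was made, and the NC signal, under the floor, sets no upper limit to the fold. Its fold between NC+IL6 and HC+IL6 was at least 1.82, with the lower signal in hypoxia. With the floors set without Afp, Cela1 and Mbp, Siglec1 was called higher in NC+IL6 than in NC, with a log2 ratio of at least 1.94, and lower in HC+IL6 when set against NC+IL6. Its other 2 probe sets were under the floor on every array. Their highest log2 signals were 6.19 and 6.08, and signals at that level carry no fold or direction.

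Siglech, a receptor known from plasmacytoid dendritic cells, had log2 signals of 7.16 in NC and 4.88 in NC+IL6, then 7.21 in HC and 5.66 in HC+IL6. The arrays without IL6 were at the floor, above it by less than 0.1, and those with IL6 were under it, so that no IL6 fold could be given. Under the floors set without Afp, Cela1 and Mbp, it was called lower with IL6 in both, with log2 ratios of -1.03 and -1.13 as lower bounds in size. Of 7 markers of plasmacytoid dendritic cells, Klk1, Tcf4 and Cox6a2 were above the floor on at least 1 array, and Ly6d, Bcl11a, Ptcra and Pacsin1 were not. Siglece, an inhibitory siglec that recruits phosphatases, had 2.94, 6.08, 3.58 and 5.11 in the same order of arrays. It was under the floor on all of them and is the only one of the 10 genes for which this holds.

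Among the St3gal enzymes, St3gal5, the GM3 synthase, had the widest range over the arrays, 1.44 on the log2 scale. The log2 signal was 10.64 in NC and 9.92 in NC+IL6, then 11.36 in HC and 10.52 in HC+IL6. It was 1.65-fold lower with IL6 in normoxia and 1.79-fold lower in hypoxia, and 1.65-fold and 1.52-fold higher in hypoxia without and with IL6, all under the 2-fold limit. A second probe set gave 9.75, 8.99, 10.38 and 9.54, with log2 ratios of -0.76 and -0.85 for IL6 and 0.63 and 0.55 for hypoxia. The probe sets of St3gal5 thus had the same order of arrays, with HC highest and NC+IL6 lowest, which was also the order of St6gal1 and Cd33.

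St3gal6, which caps N-glycans and selectin ligands, had log2 signals of 11.06 in NC and 11.51 in NC+IL6, then 11.15 in HC and 11.23 in HC+IL6. Of its 5 probe sets, 4 were above the floor on all arrays, and their log2 ratios lay between -0.03 and 0.44 for IL6 in normoxia and between -0.28 and 0.36 for IL6 in hypoxia. For hypoxia they lay between -0.09 and 0.09 without IL6 and between -0.27 and 0.19 with it. St3gal4, which acts on similar glycans, had 8.85, 8.94, 8.92 and 9.10 in the same order, a range of 0.25 over the 4 arrays. Neither gene had a log2 ratio past 0.45 in size in its brightest probe set.

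St3gal1 and St3gal2, which sialylate O-glycans, were close to the floor. St3gal1 had log2 signals of 7.84 in NC and 7.19 in NC+IL6, then 7.08 in HC and 7.76 in HC+IL6. It was above the floor in NC and HC+IL6, and the signs of its IL6 log2 ratios were opposite, -0.49 in normoxia and 0.58 in hypoxia, both lower bounds in size. Its second probe set was under the floor on all arrays, with log2 signals up to 5.68. St3gal2 had 7.20, 6.95, 7.34 and 7.23 in its brightest probe set, a range of 0.39, and no fold above 1.11 could be given for it.

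**Figure D2:**
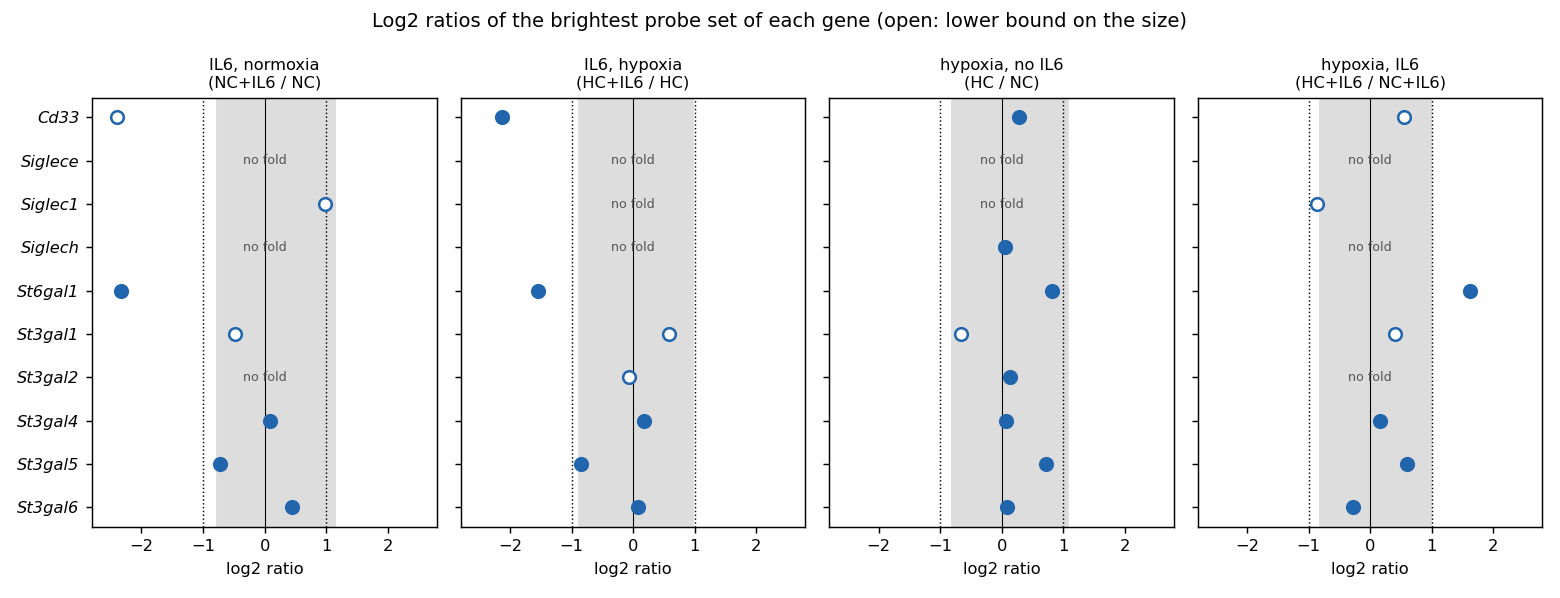
Log2 ratio of the brightest probe set of each gene in the 4 comparisons, with filled points where both arrays were above the floor, open points where the ratio is a lower bound in size, dotted lines at 2-fold and the middle 95% of all genes tested in grey. Cd33 (-2.40 and -2.13) and St6gal1 (-2.34 and -1.54) lie left of the dotted line in both IL6 panels, and St6gal1 (1.62) lies right of it in the last panel.

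Counted over the 10 genes, 9 were tested for IL6 in normoxia (brighter array above the floor), and 2 of them, Cd33 and St6gal1, were called lower and none higher. Of all 8659 genes tested, 0.935% were called lower and 3.26% higher, and since the set was picked on this contrast, the count is not read against that share. For IL6 in hypoxia the same 2 of 8 were called lower and none higher, where 1.64% of 8938 genes were lower and 2.26% higher. This count, too, is not read against the share, since the pick was for lower signals with IL6. In HC compared with NC none of 8 was called, where 3.26% of 8863 genes were higher and 1.05% lower. In HC+IL6 compared with NC+IL6, 1 of 7, St6gal1, was called higher and none lower, where 2.37% of 8760 genes were higher and 1.36% lower. The NC+IL6 array also enters an IL6 ratio for which the set was picked, so this count is not read against the share. The median log2 ratio of the tested members was 0 for IL6 in normoxia, with Siglech and St3gal2 set at 0 because no bound could be given. It was -0.03 for IL6 in hypoxia, 0.12 for hypoxia without IL6 and 0.41 for hypoxia with IL6. Over all genes tested these medians were -0.03, -0.03, 0.04 and 0.01. The 0.41 is the value of St3gal1 itself, a lower bound in size because its NC+IL6 signal was under the floor. Cd33 and Siglec1 also entered that median as bounds, so no shift of the set is read from it. The set was picked on lower IL6 values, so the 2 IL6 comparisons do not check each other, though they share no control array. Of 8518 genes tested in both, 39 were called lower in both. Cd33 and St6gal1 are among them, which is no separate support, as they were chosen for this.

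**Figure D3:**
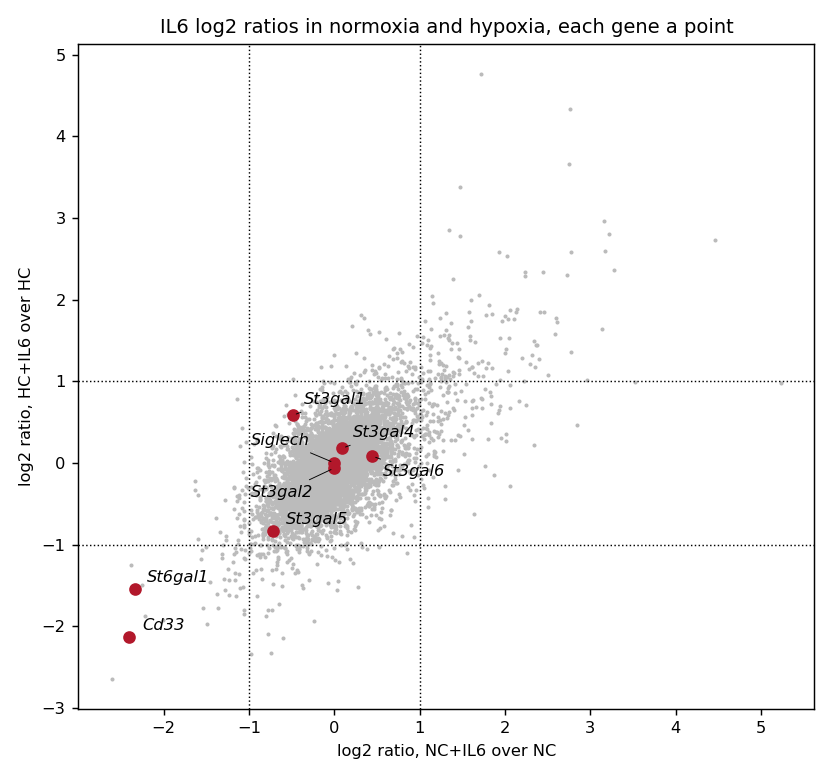
Log2 ratio of NC+IL6 over NC (horizontal) and of HC+IL6 over HC (vertical) for the 8518 genes tested in both (grey), with members of the set in red and dotted lines at 2-fold. Cd33 and St6gal1 lie at the lower left, St3gal5 nearer to the lines, and the other members shown around 0, with St3gal1 at -0.49 and 0.58. Siglech on both axes and St3gal2 on the horizontal axis were set at 0 because no bound could be given, which is not a measured lack of change. Siglec1 and Siglece were not tested in both comparisons and are not shown.

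Outside the 10 genes, a list of 72 genes held other siglecs and sialyltransferases, the enzymes that supply, transfer and remove sialic acid, the enzymes that build the glycans beneath it, proteins that carry it, and signaling partners of siglecs. Of these, 68 were measured. For IL6 in normoxia 2 of the 48 tested were called higher and none lower, beside 3.26% and 0.935% of all genes tested. For IL6 in hypoxia 1 of 47 was higher and 2 lower, beside 2.26% and 1.64%. For hypoxia without IL6 4 of 48 were higher and none lower, beside 3.26% and 1.05%, and with IL6 1 of 48 was higher and 1 lower, beside 2.37% and 1.36%. With so few genes these counts say nothing particular to the pathway. Median log2 ratios of the list were 0.07, -0.11, 0.17 and 0.06 in that order.

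Of the other siglecs on the list, no probe set used here carried the symbol Siglec5 or Siglec15, and none of the rest was above the floor. Log2 signals reached 6.56 for Siglecg, a siglec of B cells, and 5.81 for Mag, the siglec of myelin. St6gal2, the only other enzyme that builds the linkage made by St6gal1, was under the floor as well, at 3.31, 1.07, 4.04 and 3.80 in the same order of arrays as above. St3gal3 was above it, with log2 ratios of 0.06 and -0.39 for IL6 and 0.33 and -0.11 for hypoxia. Of the 6 St6galnac enzymes, which add sialic acid to N-acetylgalactosamine, St6galnac4 and St6galnac6 were above the floor and neither was called. Of the 6 St8sia enzymes, which add sialic acid to sialic acid, St8sia4 alone was above it, at 12.90, 12.22, 13.49 and 12.80. Its log2 ratios were -0.69 and -0.68 for IL6 and 0.58 and 0.59 for hypoxia, with HC highest and NC+IL6 lowest as for St6gal1 and St3gal5.

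The 6 tested genes for the supply of sialic acid gave 0 calls in each comparison, beside between 0.935% and 3.26% of all genes called in a direction, and nothing is read from so short a list. Among them were Cmas, which activates sialic acid (log2 ratios of -0.06, -0.12, 0.15 and 0.09 for IL6 in normoxia, IL6 in hypoxia, hypoxia without and hypoxia with IL6), and Nans, which makes it (0.10, 0.30, -0.67 and -0.46). The 5 tested genes for its removal gave 0 calls as well. Ctsa, a lysosomal protein that stabilizes the sialidase Neu1, had 0.16, 0.28, 0.30 and 0.42, Slc17a5, which exports sialic acid from lysosomes, had 0.06, 0.10, 0.68 and 0.72, and Neu1 itself had 0.62, 0.29, 0.26 and -0.07. Among the adaptors and enzymes downstream of siglecs, Tyrobp had log2 ratios of -0.30, -0.17, -0.01 and 0.11 and the phosphatase gene Ptpn6 had -0.35, -0.36, -0.08 and -0.09. Hcst, which encodes the adaptor DAP10, was called higher in HC than in NC, 2.02-fold.

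Gcnt1, which starts the branch of O-glycans that can carry selectin ligands, was higher with both treatments. The log2 signal was 7.32 in NC and 8.38 in NC+IL6, then 8.92 in HC and 9.76 in HC+IL6, so that every treated array exceeded NC and the combination was highest. It was 2.09-fold higher with IL6 in normoxia and 1.79-fold in hypoxia, the latter under the 2-fold limit. Hypoxia gave 3.02-fold and 2.60-fold higher signals without and with IL6. A second probe set of Gcnt1 gave log2 ratios of 0.65, 0.83, 1.39 and 1.57, with both IL6 values under the limit. Mgat2, which makes complex N-glycans, had log2 ratios of -0.09, -0.15, 0.00 and -0.06, and C1galt1c1, the chaperone of the O-glycan galactosyltransferase, had 0.24, -0.31, 0.11 and -0.44. B4galt1, which adds the galactose that St6gal1 then sialylates, had log2 ratios of -0.93 and -0.66 for IL6 and 0.41 and 0.68 for hypoxia, none of them called. The other tested B4galt genes did not share its IL6 values. IL6 log2 ratios were 0.41 and -0.20 for B4galt3, 0.28 and 0.70 for B4galt5, 0.81 and 0.99 for B4galt6, and 0.19 and 0.10 for B4galt7.

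Of 12 proteins that carry sialic acid, 1 (Lgals3bp) was called higher with IL6 in normoxia, and 1 (Lgals3bp) higher and 2 (Spn and Cd24a) lower with IL6 in hypoxia. In HC compared with NC 2 (Spn and Cd24a) were higher, and in HC+IL6 compared with NC+IL6 1 (Lgals3bp) was lower. The shares of all genes are those given for the whole list. Spn, the sialomucin CD43, had log2 signals of 8.21 in NC and 7.43 in NC+IL6, then 9.37 in HC and 7.17 in HC+IL6. Hypoxia without IL6 gave 2.24 times the NC signal, and HC+IL6 was at least 4.27-fold lower than HC. Its second probe set was above the floor in HC alone, at 7.35. Cd24a, a small anchored protein with many sialylated glycans, had 8.20, 6.77, 9.49 and 8.19. The HC signal was 2.44-fold above NC and HC+IL6 was 2.45-fold below HC. Its other 2 probe sets were under the floor in HC+IL6, and were above it in NC and HC, at 7.97 and 8.20, and in HC alone, at 7.67. The former had a log2 ratio of 0.23 for HC over NC, so it did not repeat the 2-fold call. For Spn and for Cd24a, the hypoxia call and the IL6 call both have the single HC array as the brighter one. Lgals3bp, a secreted glycoprotein that interferon induces, went the other way, at 10.18, 11.57, 9.49 and 10.55. It was 2.63-fold and 2.08-fold higher with IL6, and 2.03-fold lower in HC+IL6 when set against NC+IL6. Lamp1, a glycoprotein of the lysosomal membrane, and Cd52, a small sialylated surface protein, had log2 ratios between -0.28 and 0.24 in the 4 comparisons.

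**Figure D4:**
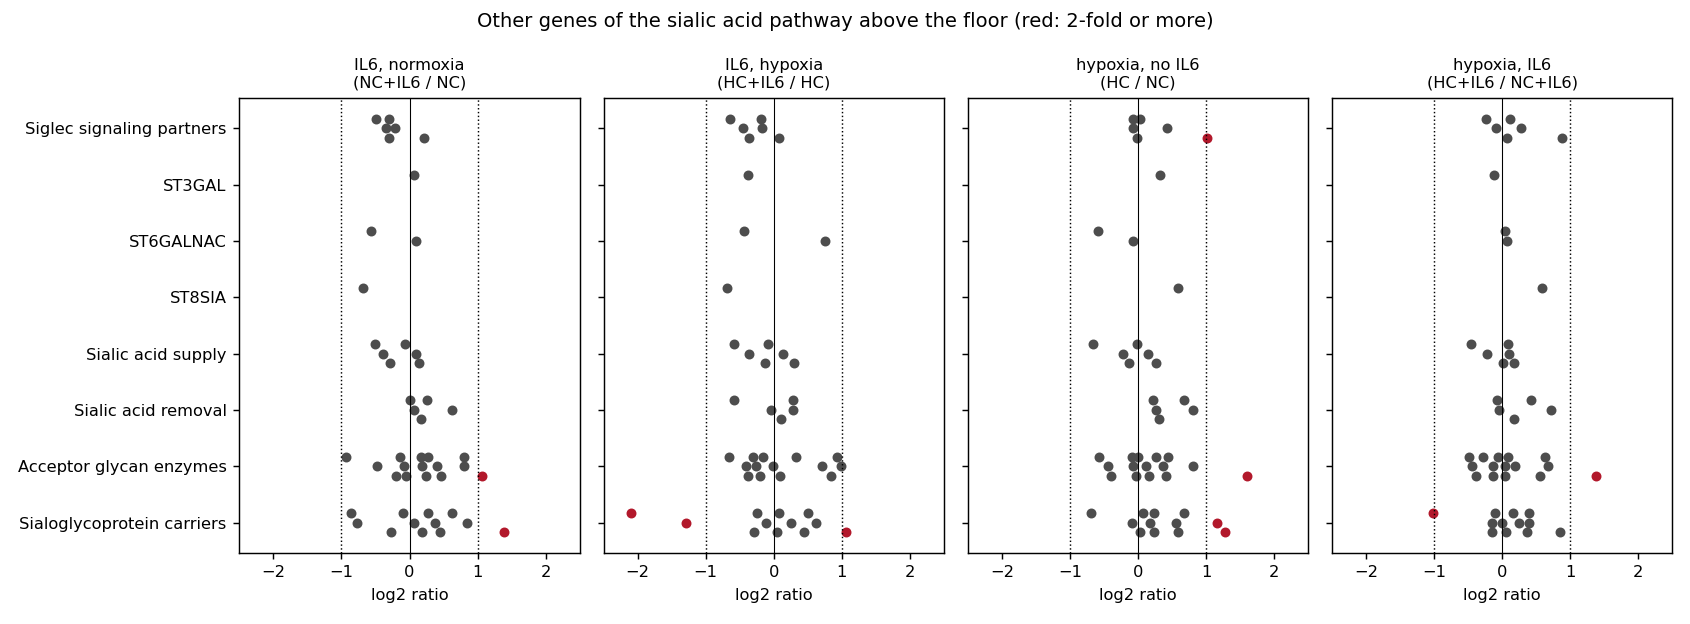
Log2 ratio of each tested gene of the wider list, by gene group, in the 4 comparisons, with red points at 2-fold or more and dotted lines at the limit. Most points lie within the lines, and those outside are Gcnt1, Hcst, Spn, Cd24a and Lgals3bp.

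The profiles of Cd33 and St6gal1 over the 4 arrays were also set against those of 1829 other genes that were above the floor on at least 1 array and had a range of at least 1.0 on the log2 scale, by the root mean square difference of log2 signals after subtracting each gene's mean. The nearest to Cd33 were Cd83, a marker of mature dendritic cells (0.19), Ndrg4 (0.25), Siglech (0.28), Ocstamp, which takes part in osteoclast fusion (0.33), and St6gal1 (0.40). Cd83 had log2 ratios of -2.61 and -2.64 for IL6, and Ndrg4 had -2.22 and -1.87, with -1.93 and -1.60 in its second probe set. Nearest to St6gal1 were Cav2, a caveolin (0.0445), Ocstamp (0.18), Cytip, a regulator of integrin adhesion (0.21), Coq8a (0.23) and Synpo, an actin-binding protein (0.26). Cav2 had log2 ratios of -2.25 and -1.49 for IL6 and 0.79 and 1.54 for hypoxia, within 0.1 of those of St6gal1 in each comparison, while its other probe set was under the floor on all arrays. Cytip had -2.39 and -1.25 for IL6 and 1.01 and 2.15 for hypoxia, and its second bright probe set had -2.40, -1.10, 1.26 and 2.56. Ocstamp, Coq8a and Synpo were above the floor on 1 array only. Cd33 ranked 15 and St3gal5 ranked 129 in likeness to St6gal1. The measure uses signals under the floor too, among them those of Cd33 in NC+IL6, of Siglech on both IL6 arrays and of Ocstamp, Coq8a and Synpo on 3 arrays, so that these distances and their order are not exact. Cd33 and St6gal1 were both picked for lower IL6 signals on these same arrays, so that the likeness between them is partly built in. The likeness rests on 4 arrays and is given as a description.

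**Figure D5:**
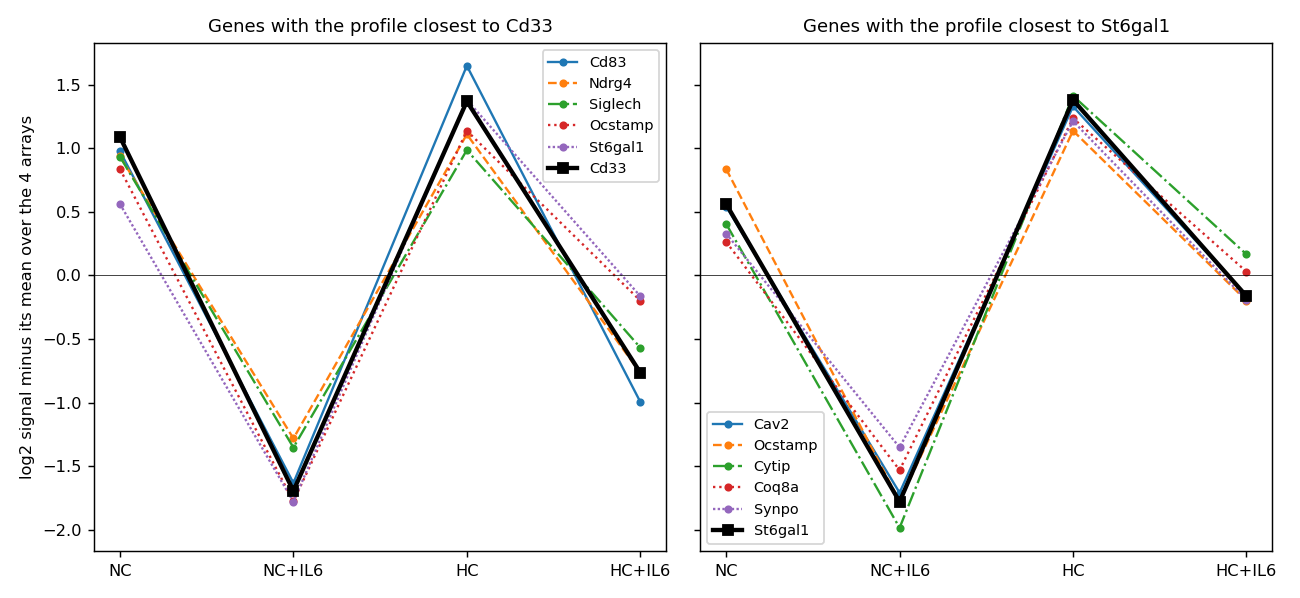
Log2 signal minus its mean over the 4 arrays for Cd33 (left) and St6gal1 (right), drawn in black, with the 5 genes nearest to each. All lines are lowest in NC+IL6 and highest in HC, and Cav2 (root mean square difference 0.0445) runs along St6gal1. Some points are signals under the floor.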

How the data were processed

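RNA of RAW264.7 cells from 4 conditions was hybridized to 1 Affymetrix array each. The table holds 45101 probe sets, more than the array type named in the study's methods carries. The authors deposited log2 signals, which they had summarized with MAS5 (version not given in the sources used here) and scaled. Every array had been scaled to the same mean of 500.0 once 2% was trimmed from both ends. Detection calls were not used.
Ratios on the log2 scale came from pandas 2.3.3 and numpy 2.4.6 under Python 3.11.15, figures from matplotlib 3.10.9, and cyclic loess from limma 3.58.1 in R 4.3.3. Of 35890 annotated probe sets, 34958 carry 1 symbol, 932 carry several and were not named, and 9211 further ones are not listed. Gene numbers of 34754 matched RefSeq GRCm38.p6, with 0 symbols updated.
Conditions came from the treatment labels. The 4 comparisons were ratios of 2 arrays at a 2-fold limit, as in the study, with no test. Where the floors of 2 arrays differed by more than the signals, the log2 ratio was set to 0. The members, gene lists, background genes and motifs were chosen with earlier results of these data known. The named genes are all members, the genes of the wider list past 2-fold, up to 2 others of each group with the highest mean signal, and the 5 profiles nearest to Cd33 and to St6gal1. B4galt1, the other tested B4galt genes and Neu1 were named beyond this rule after their values were seen. The call rule was tested on simulated data. Shifts were given there only to bright probe sets, so shifts near the floor were not covered. Alternatives were quantile normalization, cyclic loess, other floors or none, an added background, averaged probe sets and limits of 1.5-fold and 3-fold.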

Additional observations from a re-analysis of the deposited data

Results flagged for a closer look

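The IL6 log2 ratios of St3gal1 had opposite signs at the 2 oxygen levels, -0.49 in normoxia and 0.58 in hypoxia, each a lower bound in size. These 2 ratios differ by 1.07. The pooled SD between probe sets (0.25 and 0.29) comes from probe sets above the floor on both arrays. St3gal1 was under the floor in NC+IL6 and HC, so that SD is no yardstick for it. With 1 array per condition the difference was not tested. Its second probe set was under the floor on all arrays.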

How the results depend on the processing

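Counts of members called depended on the floor more than on the scaling. For IL6 in normoxia the 2 calls became 5 with no floor, with the floor at the median of the background genes or with that median added to every signal. They became 4 at 1.5-fold or without Afp, Cela1 and Mbp in the floor, and 1 with the floor at the 99th percentile (St6gal1) or with averaged probe sets (Cd33). For IL6 in hypoxia the 2 calls became 5 with no floor and 4 with the floor at the median or that median added. They became 3 at 1.5-fold (St3gal5 added) or without those 3 genes in the floor (Siglech added), and 1 at the 99th percentile, with averaged probe sets or at 3-fold. In HC compared with NC, 0 became 3 at 1.5-fold. In HC+IL6 compared with NC+IL6, the 1 call became 2 after quantile normalization, cyclic loess, no floor, the floor at the median or the floor without those 3 genes, with Siglec1 added as lower, 3 at 1.5-fold and 0 at the 99th percentile. One floor for all arrays, added like the floor without the 3 genes after the data were seen, kept all 4 counts. At the 99th percentile the floor was a log2 signal of 9.15 to 9.90, above Cd33 on both IL6 arrays. Of 316 log2 ratios and differences of members recomputed, 280 moved by less than the pooled SD between probe sets (for a difference of 2 ratios, the root of the summed squares of both SDs), 36 by more, and 0 called values changed sign. Signals near the floor limit Siglec1, Siglech, Siglece, St3gal1 and St3gal2.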
